A study of Mus musculus with 13 samples.

Results

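The pre-Treg count table lists 47729 genes, and 529 of them make up the set described here. They are the genes that are absent from the protein-coding list of the same series, do not carry the name of an antigen receptor segment, and average 10 CPM or more over the 5 pre-Treg libraries, CPM being a gene's count scaled to a common library total. Of the 47729 genes, 25681 were outside the protein-coding list and 25035 remained after receptor names were taken out. Members were thus chosen by their mean CPM in these same libraries, so their abundance is a description and not a result. Just inside the threshold were Gm20689 (10.06 CPM), Gpr137b-ps (10.05) and Ccnd3-ps (10.01), and just outside it C530050E15Rik (9.98), Gm26816 (9.98) and Gm12097 (9.98).

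The study sequenced RNA of cells on the way to and within the regulatory T cell (Treg) pool of mice, sorted after enrichment for CD4, with and without c-Rel. This protein, the product of Rel, is a subunit of the transcription factor NF-kB. Pre-Tregs are thymic precursors from which Tregs arise. The groups used here are pre-Tregs of the thymus from cRel+/+Foxp3rfp mice (2 libraries, called wild-type) and from cRel-/-Foxp3rfp mice (3 libraries, called knockout), all of the strain C57BL6/J. Both genotypes carry the Foxp3rfp allele, and the labels name no Cre driver or cell type for the c-Rel deletion. The sources used here give no age, sex or number of mice per library, so the tests measure the spread between libraries, which may be technical.

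The libraries held 13656304 to 29866696 counts, and knockout replicate 2 was the deepest. Rel itself was read at 105 and 103 CPM in the wild-type libraries and at 59.1, 51.9 and 68.5 CPM in the knockout libraries. Gene counts do not say which exons these reads cover. Of the CD4 thymocyte and pre-Treg markers Cd4, the helper coreceptor, lay between 753 and 1019 CPM and Ccr7, a chemokine receptor of maturing thymocytes, between 846 and 1423 CPM. Others varied more: Il2ra, the alpha chain of the IL-2 receptor, had 118 and 259 CPM in wild-type and 327, 121 and 263 CPM in knockout libraries, and Foxp3, the defining factor of Tregs, had 32.8 and 104 CPM against 21.3, 48.8 and 47.4 CPM. Over the 9 myeloid and dendritic markers the sums were 5.13 and 26.9 CPM in wild-type and 88.5, 11.3 and 24.4 CPM in knockout libraries, with Clec9a at 0 throughout. The 7 thymic stroma markers summed to between 193 and 235 CPM, most of it Pecam1 (162 to 201 CPM). Epcam, an epithelial marker, was at 16 and 29.9 CPM against 40.8, 26.4 and 33.4 CPM. The rest were near or at 0, with Krt5, Krt8, Foxn1 and Col1a1 at 1.14 CPM or less in every library and Psmb11 at 0. In bulk RNA, fewer cells of a type and less RNA per cell cannot be told apart.

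A label of non-coding genes describes only a part of this set. Of the 529 gene identifiers, 522 matched the GENCODE M21 annotation (build GRCm38). By its biotypes 349 members (66.0%) are processed pseudogenes, 114 (21.6%) are long non-coding RNAs (lncRNAs) and 27 are other pseudogenes. A further 19 belong to the class TEC, for transcripts that still await an experimental check, 5 are antigen receptor genes whose names the pattern did not catch, 5 are ribosomal or small RNAs, 3 are protein-coding in that release and 7 were not matched. Processed pseudogenes are copies of messenger RNAs that were written back into the genome without introns, most of them from abundantly expressed housekeeping genes. LncRNAs are transcripts without a long open reading frame, and many of the best known ones stay in the nucleus. Because a processed pseudogene can be almost identical to its source gene, a short read may match both places, and gene counts for the pair are uncertain.

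Stretches of 80 bases show how close the pairs on which the results turn are. For Ppia, which encodes the prolyl isomerase cyclophilin A, Hspa8, which encodes the constitutive HSC70 chaperone, and Hnrnpk, which encodes an RNA-binding protein, the first coding bases are set beside the best ungapped match in the pseudogene. For Uhrf1, which encodes a DNA methylation maintenance factor, the first bases of the pseudogene are set beside the best match in the messenger RNA. All run 5′ to 3′ on the strand of the gene, from GENCODE M21, and capitals mark the bases that differ.
Ppia: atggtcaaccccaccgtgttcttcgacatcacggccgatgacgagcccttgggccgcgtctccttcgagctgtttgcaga
Gm10123: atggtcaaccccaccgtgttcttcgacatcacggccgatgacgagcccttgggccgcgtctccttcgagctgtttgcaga
Gm13493: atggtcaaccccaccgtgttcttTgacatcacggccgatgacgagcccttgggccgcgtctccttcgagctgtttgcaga
Hspa8: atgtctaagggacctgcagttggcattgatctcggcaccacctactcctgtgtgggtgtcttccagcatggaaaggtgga
Gm8355: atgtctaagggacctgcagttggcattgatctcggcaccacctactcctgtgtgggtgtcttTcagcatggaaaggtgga
Hnrnpk: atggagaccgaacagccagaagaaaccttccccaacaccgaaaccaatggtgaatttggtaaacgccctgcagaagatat
Gm7964: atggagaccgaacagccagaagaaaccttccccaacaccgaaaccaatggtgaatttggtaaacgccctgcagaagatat
Uhrf1: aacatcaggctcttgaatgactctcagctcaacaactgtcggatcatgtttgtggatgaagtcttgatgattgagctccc
Gm5648: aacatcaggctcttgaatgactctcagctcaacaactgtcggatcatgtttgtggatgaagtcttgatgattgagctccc
The stretches lie at chr9:96895658-96895737 (plus strand) for Gm10123, chr2:51871539-51871618 (minus) for Gm13493, chr10:14747223-14747302 (minus) for Gm8355, chr7:83755904-83755983 (plus) for Gm7964 and chrX:121336495-121336574 (minus) for Gm5648, all in exons of genes without introns. Gm13493 and Gm8355 differ from their source gene at 1 base in the 80, and the other 3 at 0. Over whole transcripts, 100% of the 50-base words of Gm10123 also occur in a protein-coding transcript, against 70.9% in Gm13493, 57.0% in Gm8355, 70.0% in Gm7964 and 41.5% in Gm5648.

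Together the 529 members took 2.47% and 2.80% of the counts of the wild-type libraries and 2.87%, 3.66% and 2.5% of those of the knockout libraries. The knockout mean was 0.375 percentage points above the wild-type mean, less than the spread among knockout libraries (SD 0.591, n = 3), and the groups overlapped. Without knockout replicate 2 the difference was 0.0515 percentage points, and without wild-type replicate 1 it was 0.209. Processed pseudogenes took 1.29% and 1.42% in wild-type and 1.44%, 2.70% and 1.38% in knockout libraries, so that knockout replicate 2 alone lay far above the other 4. LncRNAs took 0.727% and 0.773% against 0.772%, 0.562% and 0.650%, with knockout replicate 2 the lowest.

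The 12 members with the most counts show the range of the set. The mitochondrial ribosomal RNA mt-Rnr2 (chrMT:1094-2675) led, with 1496 and 2575 CPM in wild-type and 2352, 897 and 1106 CPM in knockout libraries. Malat1, a nuclear lncRNA of speckles (chr19:5795690-5802672, minus strand), followed with 1658 and 1527 CPM against 1585, 606 and 862 CPM. In both, knockout replicate 2 had the lowest value of the 5. The lncRNA Gm26917 (chr17:39843013-39846341) had 913 and 1135 CPM against 970, 1354 and 1355 CPM, and it adjoins Rn18s-rs5, annotated as ribosomal RNA, which had 245 and 515 CPM against 500.4, 733 and 548 CPM. Gm7964, the Hnrnpk pseudogene shown above, was the steadiest, at 699 and 680 CPM against 699.8, 677 and 663 CPM. The others were Cct6a, which bears the name of a chaperonin subunit gene but is annotated as a processed transcript, the lncRNA Gas5, the pseudogenes Eif4a-ps4, Gm15427, Oaz1-ps and Vcp-rs, and C230085N15Rik inside Satb1.

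**Figure D1:**
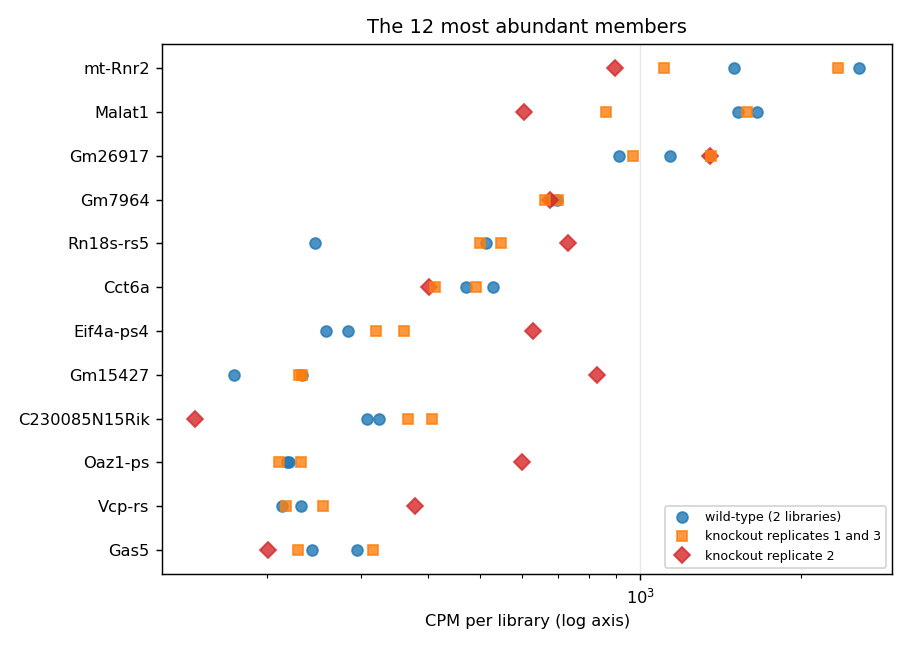
CPM in each pre-Treg library (horizontal log axis) of the 12 members with the highest mean CPM, with circles for the 2 wild-type libraries, squares for knockout replicates 1 and 3 and diamonds for knockout replicate 2. Knockout replicate 2 sits far to the right for Gm15427 (828 CPM) and Oaz1-ps (601 CPM) and to the left for C230085N15Rik (147 CPM) and Malat1 (606 CPM).

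Per kilobase of the deposited gene length the order was another. Gm14303, a 171-base pseudogene closest to Rps29, averaged 1158 CPM per kilobase, ahead of mt-Rnr2 with 1065. The pseudogenes Gm15427 and Gm4617 both averaged 638 CPM per kilobase, against 344 for Gm26917, 183 for AW112010 and 179 for Malat1. These means depend on knockout replicate 2. Gm15427 had 828 CPM there and a mean of 217 CPM in the other 4 libraries, and Gm4617 had 503 and 138 CPM. Malat1 went the other way, with 606 and 1408 CPM. Kcnq1ot1, whose annotated transcript spans 84395 bases, was the lowest at 0.919 CPM per kilobase. Class medians were 43.9 CPM per kilobase for processed pseudogenes, 8.08 for lncRNAs and 6.31 for the TEC genes, beside 14.5 for the 8801 protein-coding genes of 10 CPM or more. The threshold of 10 CPM takes no account of length, so it demands more CPM per kilobase of short genes. Median lengths were 662, 3108.5, 3156 and 4201 bases in the same order. The order of the class medians is thus in part set by the choice of genes.

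Knockout replicate 2 stood apart from the other 4 libraries in most classes of members. For each gene its CPM there was divided by the median CPM of the other 4, a measure chosen after this library was seen to differ. Over processed pseudogenes the median ratio was 1.47, with 231 of 349 at their highest in this library and 121 above 2 times the other 4. Over lncRNAs it was 0.851, over the TEC genes 0.367, and over protein-coding genes of 10 CPM or more 0.949. Of all 529 members 127 (24.0%) exceeded 2 times the other libraries, where 5.55% of all 14746 genes tested did. In this library 272 members were highest (51.4%), where 29.9% of genes tested were. The genes tested include many under 10 CPM. Among protein-coding genes of 10 CPM or more the shares were 2.12% and 33.2%. Without this library 37 members, 31 of them processed pseudogenes, would average under 10 CPM, so a high value in this library was required of them. It is also the only one whose sample description follows another naming style. The sources used here do not say whether it was prepared separately.

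**Figure D2:**
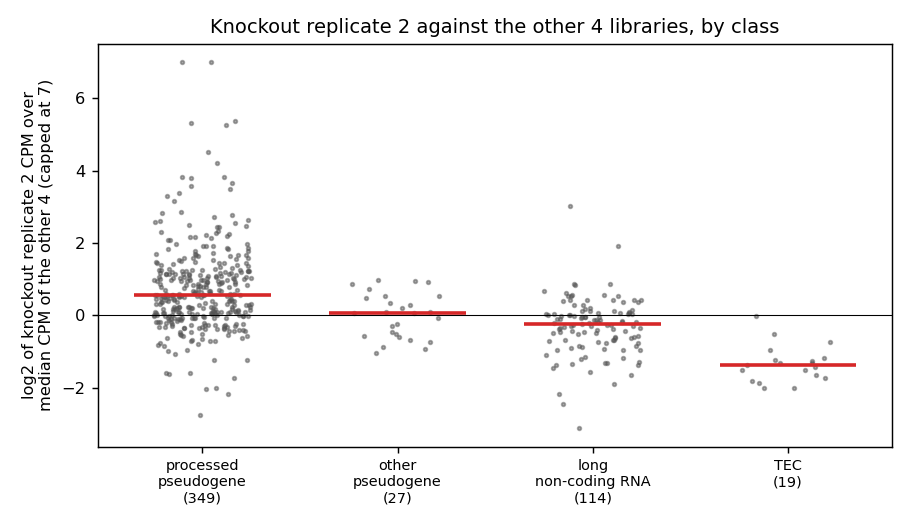
Each point is a member, with the log2 of its CPM in knockout replicate 2 over the median of the other 4 libraries (vertical axis, capped at 7), by annotation class with the number of members; red lines are class medians. The medians correspond to ratios of 1.47 for processed pseudogenes, 1.06 for other pseudogenes, 0.851 for lncRNAs and 0.367 for TEC genes.

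A few pseudogenes were read in this library almost alone. Gm10123, the Ppia copy without a difference in the stretch above, had 0.073 and 0.073 CPM in wild-type libraries, 0.12 and 0.059 CPM in knockout replicates 1 and 3, and 294 CPM in knockout replicate 2. Gm8355, the Hspa8 copy, had at most 0.15 CPM in the other 4 libraries, less than 3 counts in each, and 89.0 CPM in knockout replicate 2. Ppia and Hspa8 themselves had ratios of 0.701 and 1.55. Gm13493, the other Ppia copy, had 0.59 and 0.73 CPM against 1.12, 49.1 and 0.83 CPM, and H3f3c, closest to the histone gene H3f3a, had 0.88 and 1.02 CPM against 0.74, 54.8 and 0.77 CPM. Gm12715, closest to the actin gene Actg1, had 51.8 and 50.1 CPM against 42.1, 532 and 63.8 CPM. Actg1 itself was at 1.61 and 2.63 CPM against 1.61, 354 and 3.45 CPM, so there the source gene and the copy both stood far above the other libraries. In all, 15 processed pseudogenes exceeded 10 times the median of the other 4. Gm10123, Gm8355, Gm13493 and H3f3c are members only through knockout replicate 2, so their high ratios were fixed by the choice of members. How many of the 15 share this was not counted, nor was the share of all genes above 10 times.

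The excess in knockout replicate 2 went with closeness to a coding transcript. Each processed pseudogene was cut into all its 50-base words, and the share that also occurs in a protein-coding transcript of another gene was counted. The coding gene that shares most of these words is called its source gene here. This share had a median of 61.4%, was 100% in 38 pseudogenes and 0 in 1, and had a median of 0.359% in lncRNAs. Where the share was under 25% (45 pseudogenes) the median ratio was 0.907, and it was 1.36 from 25 to 50% (83), 1.69 from 50 to 75% (104) and 1.96 above that (117). The source genes of the same groups had median ratios of 1.09, 1.25, 1.04 and 1.26. With words of 100 bases the medians were 1.13, 1.51, 2.08 and 1.87, so the highest group was then the third. The 50-base groups include 31 pseudogenes that would average under 10 CPM without knockout replicate 2. For them a value in this library above the mean of the others was fixed by the choice of members. The number of genes exceeding 2 times the other libraries was 6, 20, 39 and 56 in the 50-base groups, with those 31 not set aside. These are descriptions of 1 library, and the sources used here do not say how reads with several matches were counted in each library; its part in the pattern was not tested.

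**Figure D3:**
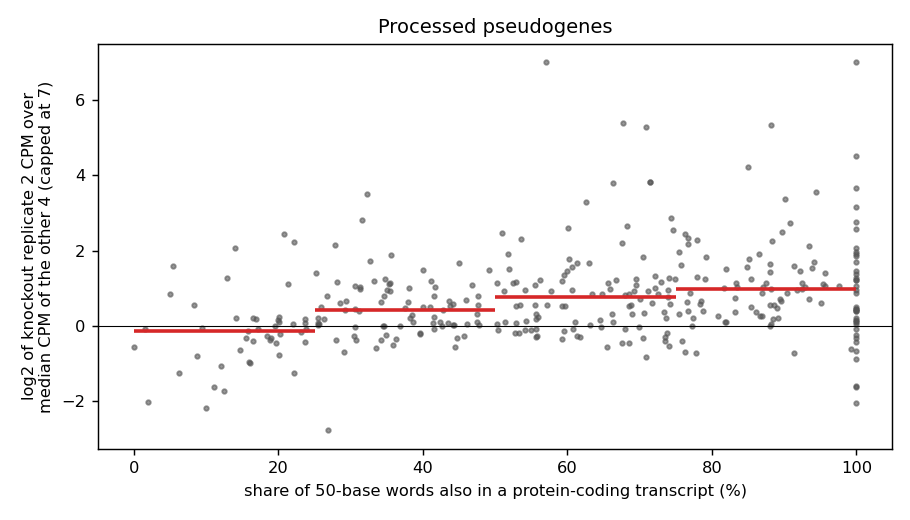
Processed pseudogenes by the share of their 50-base words that also occur in a protein-coding transcript (horizontal axis, percent) and the log2 of their CPM in knockout replicate 2 over the median of the other 4 libraries (vertical axis, capped at 7); red lines are the medians of 4 groups. The medians correspond to ratios of 0.907, 1.36, 1.69 and 1.96 from left to right, with points on both sides of 0 in every group.

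Single pseudogenes departed from this order. Gm13835, whose source gene is Psma3, a proteasome subunit, has 100% of its words in protein-coding transcripts. Yet it had 253 and 278 CPM in wild-type and 278, 198 and 195 CPM in knockout libraries. Gm20689, closest to Rab8b with the same share, had a ratio of 0.211. Ribosomal protein genes were the closest source of 69 pseudogenes (19.8%), with a median ratio of 2.76, beside 1.31 for the others. The source genes themselves had median ratios of 1.52 for these 69 and 1.09 for the others. Among the 69 pseudogenes, Rpl28-ps1 had 3.00 and 3.36 CPM against 2.73, 41.9 and 2.5 CPM, and Rpl34-ps1 had 4.83 and 5.69 CPM against 5.95, 85.3 and 5.47 CPM. Both were under 10 CPM in all the other libraries and are members only through knockout replicate 2.

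The TEC genes went the other way, and 18 of the 19 members lie inside or overlap a protein-coding gene, 16 of them on the same strand without sharing an exon. In such a place reads of unspliced host RNA and reads of the member cannot be told apart. Knockout replicate 2 was the lowest library for 18 of the 19, where it was the lowest for 38.3% of all 14746 genes tested. The hosts of those inside a gene body had a median ratio of 0.805, and 15 of 16 hosts had a higher ratio than the member. Satb1, which encodes a chromatin organiser of thymocytes, holds 4 members. C230085N15Rik had 324 and 307 CPM in wild-type and 367, 147 and 408 CPM in knockout libraries, and 5830444F18Rik had 64.7 and 57.1 CPM against 86.4, 16.3 and 51.6 CPM. Satb1 itself had 2169 and 1704 CPM against 2211, 1807 and 2447 CPM, a ratio of 0.825. A130071D04Rik, inside the CD45 gene Ptprc, had 95.3 and 95 CPM against 72.6, 24.7 and 63.0 CPM. Gm43362, inside the splicing factor gene Srsf11, was the exception, at 13.2 and 12.8 CPM against 16.4, 13.9 and 14.8 CPM.

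Among lncRNAs the lowest ratio belonged to Xist, the RNA that coats the inactive X chromosome (chrX:103460375-103483217, minus strand). It had 251 and 335 CPM in wild-type libraries and 412, 33.1 and 199 CPM in knockout libraries, a ratio of 0.113. The 4 Y-linked genes listed were also read in every library, with sums of 127 and 90.4 CPM against 71.3, 134 and 90.9 CPM, so Xist and Y-linked RNA occurred together. Knockout replicate 2 was likewise the lowest library for Kcnq1ot1, the imprinted antisense RNA of Kcnq1 (79.7 and 115.9 CPM against 101, 30.3 and 60.9 CPM), for Tug1 (165 and 164 CPM against 183, 72.5 and 154 CPM) and for Neat1, the scaffold of paraspeckles (92.4 and 71.8 CPM against 73.9, 43.0 and 74.0 CPM). AW112010, a lncRNA known from activated immune cells, had 157 and 168 CPM against 154, 80.1 and 146 CPM. Over all 114 lncRNAs knockout replicate 2 was the lowest library for 54 and the highest for 23. Of all 14746 genes tested it was the lowest for 38.3% and the highest for 29.9%. The 57 lncRNAs at or above the median length had a median ratio of 0.746 and the 57 shorter ones 0.926. Of the 114 lncRNAs, 37 share exon bases with a protein-coding gene, 35 of these on the opposite strand, and the sources used here give no strand setting of the count, so reads of such a pair cannot be told apart.

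**Figure D4:**
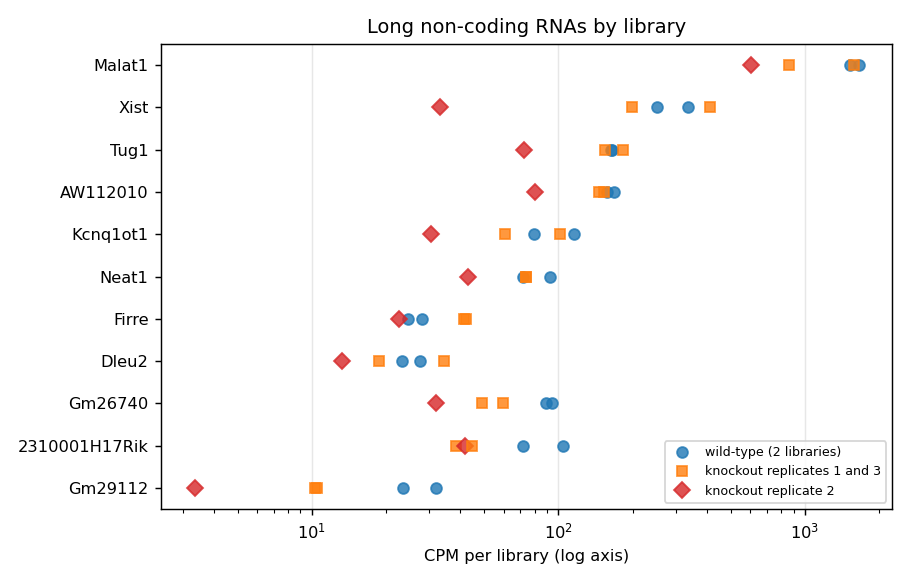
CPM in each library (horizontal log axis) of 11 lncRNAs (Dleu2 and others named in the text), with circles for wild-type libraries, squares for knockout replicates 1 and 3 and diamonds for knockout replicate 2. Knockout replicate 2 is lowest for 10 of these 11, but over all 114 lncRNA members it is lowest for 54 and highest for 23. For 2310001H17Rik it lies among the other knockout libraries, and all 3 knockout libraries lie below both wild-type libraries.

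The comparison of the genotypes asks whether loss of c-Rel changed these RNAs in pre-Tregs. Of the 529 members 526 passed the filter on low counts, and Gm10123, Gm8355 and Gm10257, read almost only in knockout replicate 2, did not. By the edgeR quasi-likelihood test with Benjamini-Hochberg adjustment over all genes, 0 of 526 members were called at an adjusted p under 0.05, and 0.0% of all 14746 genes tested; the smallest adjusted p among members was 0.483. An unadjusted p under 0.05 was reached by 31 members (5.89%; 13 higher and 18 lower in the knockout), beside 6.57% of all genes tested (3.61% higher and 2.96% lower). The knockout libraries lay wholly above the wild-type libraries for 74 members (14.1%, background 15.3%) and wholly below for 53 (10.1%, background 11.5%). Without knockout replicate 2 these counts were 98 (18.6%, background 24.8%) and 80 (15.2%, background 15.3%), and 49 members had an unadjusted p under 0.05 (9.32%, background 10.9%). For these counts of non-overlap and of unadjusted p the shares of members were near or below the background.

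DESeq2 called 5 members, where it called 0.585% of 15035 genes with an adjusted p, limma-voom called 0, and edgeR without knockout replicate 2 called 3 (background 0.447%). The members called by DESeq2 were Gm4956, 2310001H17Rik and Gm29112, lower in the knockout, and Gm5648 and Ighm, higher in it. The 3 called by edgeR without knockout replicate 2 were 2310001H17Rik, Gm29112 and Gm5648.

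Gm29112 is a sense-intronic lncRNA of 3487 bases (chr1:69595036-69598522, minus strand) inside Ikzf2, the gene of Helios, a zinc finger factor of Tregs. It had 23.5 and 31.8 CPM in wild-type libraries and 10.5, 3.35 and 10.3 CPM in knockout libraries. All 3 knockout libraries lay below both wild-type libraries, at a log2 fold change of −1.82 (SE 0.44, edgeR adjusted p = 0.596). Without knockout replicate 2, the lowest, it was −1.45 (SE 0.22, edgeR adjusted p = 0.028), and DESeq2 over 5 libraries gave an adjusted p of 0.015. Ikzf2 itself had 433 and 601 CPM against 204, 110 and 172 CPM, with a log2 fold change of −1.69 (SE 0.26, edgeR adjusted p = 0.307). Like the member, Ikzf2 was called in the other 2 fits. Without knockout replicate 2 its log2 fold change was −1.50 (SE 0.18, edgeR adjusted p = 0.020), and the DESeq2 adjusted p was 5.13e-06. The member lies on the strand of Ikzf2 without sharing an exon, so its reads cannot be told apart from unspliced Ikzf2 RNA.

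2310001H17Rik is an intergenic lncRNA on chromosome 6 (chr6:129208412-129238725, minus strand), 21878 bases from Clec2d, a lectin-like receptor ligand gene on the other strand. Its levels were 71.8 and 104 CPM in wild-type and 38.3, 41.9 and 44.6 CPM in knockout libraries. The groups did not overlap, and the log2 fold change was −1.08 (SE 0.21, edgeR adjusted p = 0.483). It was −1.13 (SE 0.19, edgeR adjusted p = 0.043) without knockout replicate 2, and the DESeq2 adjusted p was 0.0082. Clec2d, at 5.93 and 10.9 CPM against 8.55, 6.90 and 5.47 CPM, had groups that overlapped.

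Gm4956, a transcribed unprocessed pseudogene (chr1:21285246-21298312, minus strand) 19585 bases from the glutathione transferase gene Gsta3, had 17.9 and 46.1 CPM in wild-type and 7.19, 8.67 and 8.63 CPM in knockout libraries. The wild-type libraries differed widely from each other but both lay above the knockout libraries. The log2 fold change was −1.96 (SE 0.38, edgeR adjusted p = 0.483), with a DESeq2 adjusted p of 0.00095 and an edgeR adjusted p of 0.052 without knockout replicate 2. Without wild-type replicate 2 the log2 fold change was −1.16.

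Gm5648 (chrX:121334988-121336574, minus strand) is the partial Uhrf1 copy shown above. It had 16.3 and 17.9 CPM in wild-type and 40.2, 45.1 and 34.0 CPM in knockout libraries, with no overlap. The log2 fold change was 1.22 (SE 0.24, edgeR adjusted p = 0.483); without knockout replicate 2 it was 1.07 (SE 0.19, edgeR adjusted p = 0.048), and the DESeq2 adjusted p was 0.0028. Uhrf1 had 126 and 165 CPM against 287, 269 and 253 CPM, a log2 fold change of 0.88 (SE 0.19, edgeR adjusted p = 0.552). DESeq2 called Uhrf1 too, with an adjusted p of 0.015. Without knockout replicate 2 its log2 fold change was 0.85 (SE 0.17, edgeR adjusted p = 0.064). The count of either gene is uncertain, since 41.5% of the words of Gm5648 occur in a protein-coding transcript and Uhrf1 is the gene that shares most of them.

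Ighm, the constant region gene of the IgM heavy chain (chr12:113418558-113422730, minus strand), is no non-coding gene and is a member because the name pattern did not catch it. It had 144 and 132 CPM in wild-type and 256, 215 and 229 CPM in knockout libraries, a log2 fold change of 0.74 (SE 0.17, edgeR adjusted p = 0.575; DESeq2 adjusted p = 0.030). The 7 B and plasma cell markers summed to 8.86 and 20.2 CPM in wild-type and 34.5, 12.9 and 29.3 CPM in knockout libraries. Of the 5 that passed the filter 4 had a log2 fold change above 0 and 0 were called. Cd79b had 3.88 and 7.88 CPM against 21.8, 7.6 and 13.2 CPM, Mzb1 0.59 and 2.34 CPM against 8.68, 2.48 and 3.09 CPM, and Cd79a, the one below 0, 3.44 and 2.77 CPM against 1.98, 2.48 and 4.34 CPM. Pax5 was at 0 in wild-type replicate 1 and knockout replicates 1 and 2. The part of these cells in the Ighm values was not tested. The T cell receptor gamma genes varied widely within each genotype. Tcrg-C1 had 25 and 114 CPM against 355, 51.0 and 187 CPM, and Trdc, the delta chain constant gene and no member, had 31.9 and 49.4 CPM against 119, 32.7 and 58.1 CPM. The 6 CD8 T and NK cell markers summed to 67.1 and 67.4 CPM against 124, 60.8 and 93.3 CPM. Of these, 3 had a log2 fold change above 0 and 3 below 0, and 0 were called. Gzma, a cytotoxic granule protease and the highest of them on average, had 12.6 and 28.1 CPM against 87.4, 19.8 and 43.4 CPM. Cd8b1 had 39.3 and 29.1 CPM against 23.8, 29.7 and 35.1 CPM. Tcrg-C1, Trdc and Gzma were thus all highest in knockout replicate 1, as was Klrd1, while Cd8b1 and Prf1 were lowest there. The part of such cells in the values was not tested.

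The other members with the smallest unadjusted p did not pass the test under edgeR, with or without knockout replicate 2, or under DESeq2. Lower in all 3 knockout libraries were Gm26740, a lncRNA listed among those known in T cells (94.0 and 89.3 CPM against 59.5, 31.9 and 49.1 CPM, log2 fold change −0.99, SE 0.24), and 4833407H14Rik (32.1 and 32.0 CPM against 17, 19.5 and 18.7 CPM, log2 fold change −0.80, SE 0.21). The same held for Gm12250, 2610204G07Rik and Atp10d, with log2 fold changes of −0.76, −1.01 and −0.78. Gm26740 lies across H60b, a ligand gene of the NKG2D receptor, on the opposite strand, and H60b had a log2 fold change of −0.57 (SE 0.44). 2610204G07Rik lies inside the spliceosome gene Cwc27, also on the opposite strand, which had a log2 fold change of 0.15 (SE 0.20).

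Higher in all 3 knockout libraries were Snhg8, a small nucleolar RNA host gene, with 6.22 and 7.67 CPM against 11.3, 14.2 and 13 CPM (log2 fold change 0.89, SE 0.28), Gm12966, closest to the splicing factor gene Srsf5 (80.2 and 75.9 CPM against 117, 147 and 123 CPM, log2 fold change 0.72, SE 0.20), and Gm14718, 7765 bases from Cd40lg (9.74 and 8.98 CPM against 15.5, 16 and 14 CPM, log2 fold change 0.69, SE 0.25). Cd40lg, the ligand of CD40 on helper T cells, had a log2 fold change of 0.05 (SE 0.21). Dgkeos, antisense to the lipid kinase gene Dgke, had 3.00 and 11.6 CPM against 32.2, 13 and 20.3 CPM (log2 fold change 1.56, SE 0.57), with 0.13 (SE 0.36) for Dgke. The wild-type libraries of Dgkeos differed from each other, and its log2 fold change was 0.90 without wild-type replicate 1 and 2.81 without wild-type replicate 2. In Gm4617 and Gm37486, pseudogenes of Ptma and H3f3b, knockout replicate 2 carried most of the difference. Gm4617 had 106 and 120 CPM against 146, 503 and 183 CPM, and its log2 fold change of 1.33 (SE 0.53) was 0.50 (SE 0.16) without that library. For Gm37486 it was 1.62 (SE 0.64) and 0.61 (SE 0.23).

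**Figure D5:**
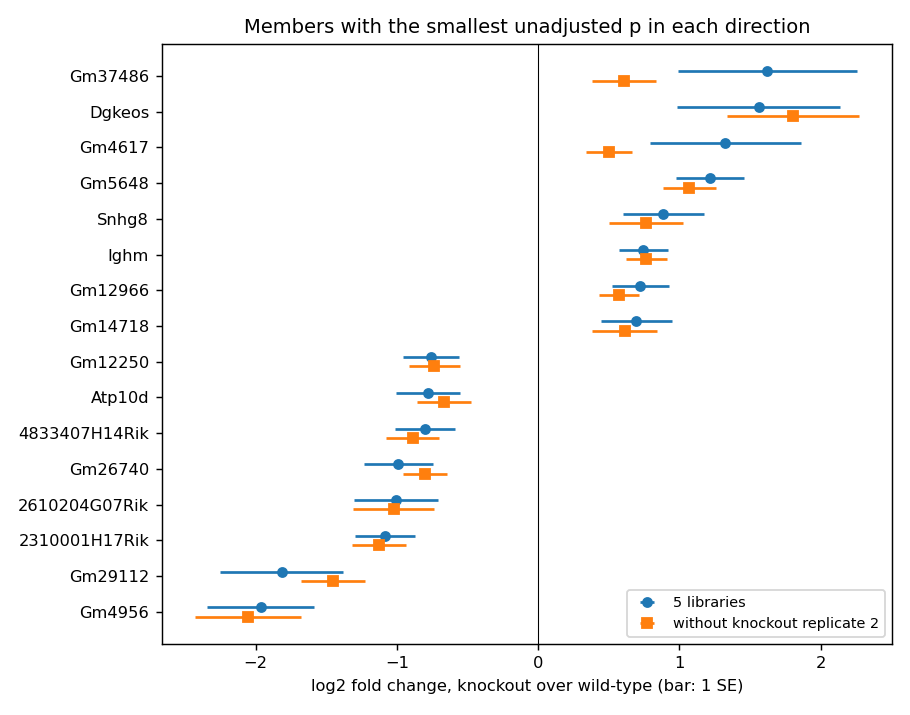
Log2 fold change of knockout over wild-type with 1 SE (horizontal axis) for the 8 members with positive and the 8 with negative values that had the smallest unadjusted p, from edgeR on 5 libraries (circles) and without knockout replicate 2 (squares). All 16 keep their sign, which is no independent support, since they were chosen by p in the fit on the 5 libraries. Gm4617 and Gm37486 move the farthest, from 1.33 to 0.50 and from 1.62 to 0.61.

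By class the fold changes moved with the inclusion of knockout replicate 2. The median log2 fold change over 347 processed pseudogenes tested was 0.27, with 253 above 0, beside 0.03 over all genes tested. Without knockout replicate 2 it was −0.0041, with 172 above 0. Over the 114 lncRNAs it was −0.10 and then −0.05, and over the 19 TEC genes −0.34 and then 0.06, so that this class turned its sign. Without knockout replicate 1 the TEC median was −0.62. The 5 antigen receptor genes had a median of 1.06 and then 1.46. Their median over the remaining libraries was 0.72 when wild-type replicate 1 was left out, 2.01 when wild-type replicate 2 was, and 0.69 when knockout replicate 1 was.

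Gene lists from general knowledge of non-coding RNA gave no call by edgeR over 5 libraries. Of the small nucleolar RNA host genes, which carry the guide RNAs of ribosome maturation in their introns, 8 were members, and 10 of 13 tested had a log2 fold change above 0 (median 0.18; 8 of 12 without knockout replicate 2). Gas5 had 242 and 295 CPM against 315, 200.1 and 229 CPM, with overlapping groups. Of the nuclear lncRNAs 7 were members and 7 of 9 tested lay below 0, with a median of −0.30 that was −0.01 without knockout replicate 2. Firre, a nuclear lncRNA of the X chromosome, went the other way with 24.5 and 28.0 CPM against 42.3, 22.6 and 41.5 CPM. Of the lncRNAs known in T cells 10 were members and 12 of 14 tested lay below 0, with medians of −0.23 and −0.20. Kcnq1ot1 and Peg13 were the imprinted lncRNAs among the members, and Xist and 5530601H04Rik those of the X inactivation centre, and the groups overlapped for all of them. Peg13 had 13 and 8.83 CPM against 13.4, 5.66 and 12.1 CPM.

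Among the host genes of microRNAs, 2 that averaged under the 10 CPM that make a member were called by DESeq2 and by edgeR without knockout replicate 2. Mir155hg, the host of miR-155 and an NF-kB target in lymphocytes, had 8.57 and 10.4 CPM in wild-type and 1.98, 0.77 and 1.19 CPM in knockout libraries, without overlap. Its log2 fold change was −2.89 (SE 0.43, edgeR adjusted p = 0.307), with an edgeR adjusted p of 0.020 without knockout replicate 2. Mir22hg had 1.76 and 0.80 CPM against 6.45, 5.59 and 9.46 CPM, a log2 fold change of 2.46 (SE 0.48, edgeR adjusted p = 0.483; 0.043 without knockout replicate 2). Both were called by DESeq2, with adjusted p of 2.16e-06 and 0.00079. The member of this list, Mir142hg, had 29.7 and 32.8 CPM against 24.3, 36.2 and 23.7 CPM, with overlapping groups.

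Promoter sequences from RefSeq (build GRCm38.p6, 250 bases before to 50 after each start) were searched for the kB consensus, the sequence that NF-kB dimers such as those with c-Rel bind, on both strands. It occurs in 8.46% of 32851 promoter windows and in 7 of the 100 windows of the 85 members that have one. Of the 16 members in the genotype plot 7 have a window, and it occurs in 2 of these, Snhg8 and Dgkeos, both higher in the knockout libraries. The windows of 2310001H17Rik, Gm26740, 4833407H14Rik, Gm14718, Gm12250 and Mir155hg hold no match, which says only that these letters are not in the window. The promoters of Snhg8 (chr3:123508287-123508586, minus strand), with the match in capitals, and of 2310001H17Rik (chr6:129237996-129238295, minus strand), without one, show 1 member of each direction.
Snhg8: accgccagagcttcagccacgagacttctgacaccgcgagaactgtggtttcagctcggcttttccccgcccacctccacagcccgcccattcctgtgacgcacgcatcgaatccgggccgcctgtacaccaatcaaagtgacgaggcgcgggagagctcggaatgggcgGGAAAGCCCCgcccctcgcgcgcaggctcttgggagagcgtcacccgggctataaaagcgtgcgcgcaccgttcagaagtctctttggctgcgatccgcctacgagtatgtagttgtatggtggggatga
2310001H17Rik: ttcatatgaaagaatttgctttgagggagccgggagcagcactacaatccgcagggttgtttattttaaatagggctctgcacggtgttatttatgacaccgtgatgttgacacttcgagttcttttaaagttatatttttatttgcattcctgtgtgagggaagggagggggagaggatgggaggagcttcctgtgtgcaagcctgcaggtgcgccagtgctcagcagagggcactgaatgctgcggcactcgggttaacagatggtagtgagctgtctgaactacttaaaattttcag
The match in Snhg8 begins 80 bases before the annotated start and reads as the consensus on the opposite strand. It is a match of letters and not a measured binding site.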

How the data were processed

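RNA of 13 libraries was sequenced in the series, and the 5 pre-Treg libraries were used here, since the tables of the other stages list protein-coding genes only. The values are raw counts of reads per gene, deposited by the authors without normalization. The submitters' processing notes list the aligner STAR 2.5.2, the counter featureCounts from Subread 1.5.2, the build GRCm38, the quality tools FastQC, MultiQC and Picard 2.9.0, and limma; the sources used here give neither the handling of reads with several matches nor the strand setting. All 5 per-sample columns were used.

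CPM are counts over the library total, 13656304 to 29866696, so that 3 counts correspond to 0.100 to 0.220 CPM. Genotypes were compared in R 4.3.3 with edgeR 4.0.16 (TMM, filterByExpr, quasi-likelihood F-test, Benjamini-Hochberg over 14746 genes, threshold 0.05), checked on simulated counts. Alternatives were DESeq2 1.42.0, limma-voom (limma 3.58.1), other scalings, no filter, other CPM thresholds, a replicate block, and leaving out each library. SE is the standard error of the log2 fold change and SD that of library values. Shared words, promoters and plots were computed in Python 3.11.15. Classes, transcripts and coordinates of sequences come from GENCODE M21; 483 members start at the same base in it.

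Named genes are the 12 members of highest mean CPM, up to 8 of each sign by unadjusted edgeR p with their overlapping or nearest coding genes, listed non-coding members, and the neighbours of the threshold; pseudogenes that stood out in knockout replicate 2, genes inside Satb1 and other genes beside them, the polymorphic pseudogenes, Mir155hg and Mir22hg were chosen after their values were seen. Members and lists were chosen with earlier results of these data known.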

Additional observations from a re-analysis of the deposited data

How the results depend on the processing

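The count of 0 members called by edgeR held with RLE size factors, with library sizes from protein-coding genes, without a count filter, with limma-voom and with mean CPM thresholds of 5 and 20. DESeq2 called 5 members and 88 genes in all, and edgeR without a count filter called 14 genes and 0 members. Leaving out each library in turn gave 0 to 3 members and 0 to 64 genes, and knockout replicate 2 was the library whose omission gave calls; with 1 wild-type library left, its spread was assumed to equal that of the knockout libraries. Its omission, as a setting added after the data were seen, also moved the members wholly below wild-type from 53 to 80 and those with an unadjusted p under 0.05 from 31 to 49; fewer libraries make non-overlap more frequent in all genes too. The difference in the members' share of counts was 0.0515 to 0.630 percentage points on leaving out single libraries. Across 209 alternative fits of 19 named members, 198 gave the same sign and side of the threshold, 11 passed it where the main one did not, and 0 changed sign. Most of these members were chosen by their small p in the main fit of the same libraries, so their kept sign is no independent support.

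With the replicate number as a block, edgeR called 19 of 526 members (3.61%; 17 higher, 2 lower) and 77 of 14746 genes (0.522%). All 17 higher calls were processed pseudogenes, and the lower ones were Gm29112 and Gm4956. In this fit the knockout library without a wild-type library of the same number added nothing to the genotype effect. The effect thus rested on 2 pairs of libraries, and knockout replicate 2, in which processed pseudogenes were high, was in them. The part of that library in these calls was not tested, so the higher share among members is not read as a genotype effect. Deviations of same-numbered libraries from their group mean correlated at −0.17 and −0.16. With 2 wild-type libraries these deviations mirror each other, and there are 2 such pairs only, so the check cannot decide whether the numbers pair animals.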

Other observations

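A small group of members are polymorphic pseudogenes, which are disrupted in the reference mouse strain and intact in others. Besides Atp10d they are Mx2 and Oas1b, antiviral genes of the interferon response, H2-T10, a non-classical class I gene, and Hyi. Mx2 had 22.8 and 19.6 CPM in wild-type and 14, 14.7 and 16.5 CPM in knockout libraries, with no overlap and a log2 fold change of −0.50 (SE 0.23, edgeR adjusted p = 0.72). Oas1b had 28.0 and 28.9 CPM against 19.5, 27.3 and 23.1 CPM, with a log2 fold change of −0.29 (SE 0.24). H2-T10, at 44.2 and 43.4 CPM against 29.4, 64.0 and 43.9 CPM, had overlapping groups.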
